A study of Mus musculus with 71 samples.

Results

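The genes described here are 10 of the Notch signaling pathway, the receptors Notch1, Notch2 and Notch3, the ligands Jag1, Jag2 and Dll1, the DNA-binding factor Rbpj, and the targets Hey1, Hey2 and Heyl. They were taken from 55450 genes of GENCODE vM21, of which 21951 are protein-coding. A chromatin loop was counted for a gene if either anchor came within 2 kb of any transcription start site (TSS) of that gene, which gave 31 of the 24244 loops in the list. Notch signaling passes between touching cells: a ligand of the Jagged or Delta-like family on the sending cell engages a Notch receptor, the receptor is cut, and its freed intracellular part joins RBPJ on DNA to switch on targets such as the Hey genes. The pathway sets cell fates in many developing tissues, limb mesenchyme and blood vessels among them.

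The loops came from H3K27ac HiChIP of mouse synovial sarcoma (SyS) tumors, an assay that captures DNA contacts at chromatin carrying the acetylation of active promoters and enhancers. There were 2 tumors, both expressing human SS18::SSX2 (hSS2) from a Cre-dependent allele in Rosa26, and both initiated by TATCre protein injected into the hindlimb at 8 days of life. They were whole tumors, so the loops can come from tumor cells and from the vessels, stroma and immune cells among them, and a contact of few cells and a weak contact in all cells cannot be told apart. The ChIP-seq samples of the series are not analysed here. The values are paired-end tags, the read pairs that join both anchors of a loop, and the loop score of a promoter is the sum of the tags of its loops. The authors deposited a list merged over both tumors, which has no value per tumor, no control and no replicate spread. No test between samples was therefore possible. The list runs through the chromosomes in 2 blocks, here called the first part (13683 loops with 28657 tags) and the second part (10561 loops with 12917 tags), and neither is labeled with a tumor. Intervals of loop scores are exact Poisson 95% intervals, intervals of shares are Wilson 95% intervals, and both cover counting error only.

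Loops reached 8 of the 10 Notch pathway promoters, where 45.8% of all protein-coding genes had at least 1 loop. Hey1 had the largest loop score with 29 tags, Jag1 followed with 16, and Notch1 had 7. Notch2, Dll1, Rbpj and Hey2 had 4 tags each and Notch3 had 1. No loop reached Jag2 or Heyl, and by counting error alone a count of 0 allows up to 3 tags for each. Contacts that missed the authors' FDR limit are not in the list, so their tags are not bounded by this value. The 31 loops together held 69 tags (53.7 to 87.3), or 0.166% of all tags, and Hey1 and Jag1 contributed 65.2% of them. The loop scores fell within a wide background: the median over the 8 looped genes was 4 tags, as it was over all 10050 looped protein-coding promoters (lower quartile 2, upper quartile 9).

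The order of the loop scores was resolved by counting error only at its top. The interval of Hey1 (19.4 to 41.6 tags) lay above those of the genes from Notch1 downward, but it overlapped that of Jag1 (9.15 to 26.0). Jag1 lay above Notch3, Jag2 and Heyl and overlapped the rest. Of the 45 pairs among the 10 genes, 11 had intervals that did not overlap, and no 2 neighbors in the order were apart. Among looped protein-coding promoters 5.81% had a larger loop score than Hey1 and 13% a larger one than Jag1. Notch1 was exceeded by 29.9%, and the 4 genes with 4 tags by 45.6%.

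**Figure D1:**
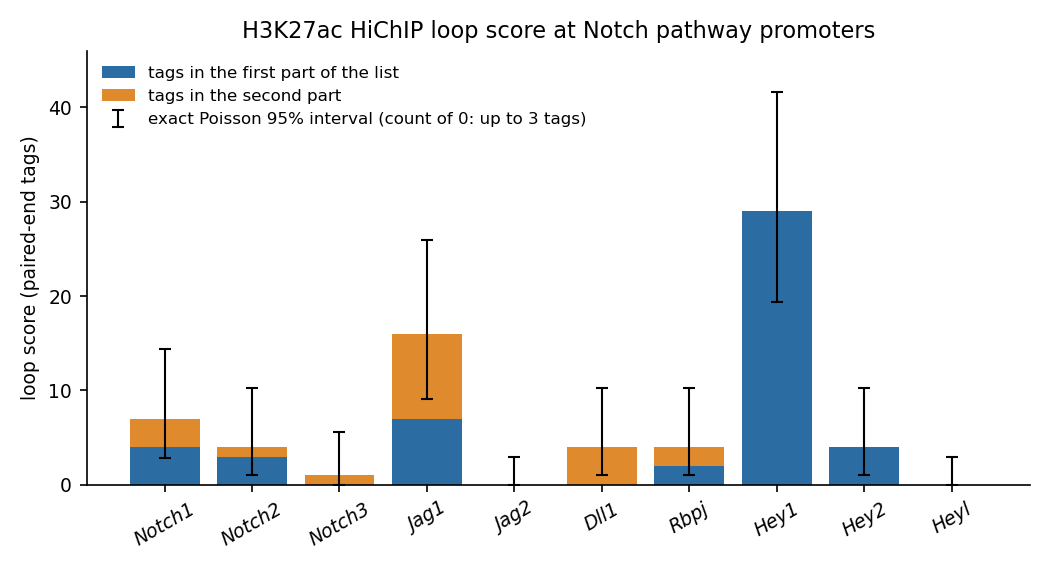
Loop score of each Notch pathway promoter in paired-end tags (vertical axis), with the tags of the first and the second part of the list stacked and an exact Poisson 95% interval on the sum. Hey1 (29 tags) and Jag1 (16 tags) stand highest, the bar of Hey1 is made of the first part alone, and Jag2 and Heyl have no tags.

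**Figure D2:**
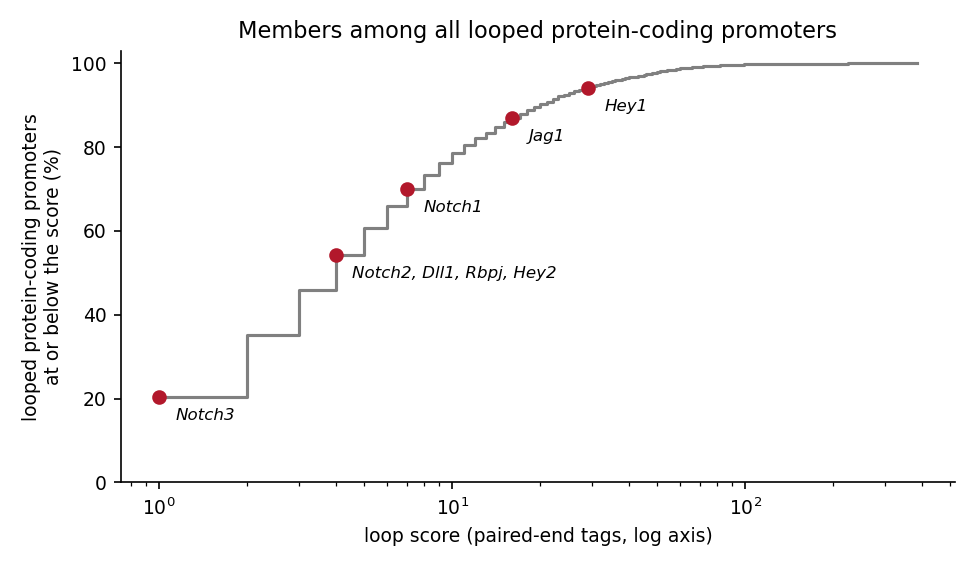
Share of the looped protein-coding promoters (vertical axis, percent) whose loop score is at or below a given value (horizontal axis, paired-end tags on a log axis), with the 8 looped Notch pathway genes as points. Hey1 lies at 94.2% and Jag1 at 87.0%, while Notch2, Dll1, Rbpj and Hey2 share the point at 54.4%.

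Notch1 (ENSMUSG00000026923.15, mm10 chromosome 2, 26457903 to 26516663, minus strand) had 4 loops and the most tags among the 3 receptors of the 10 genes. Its contact with the promoter of Gpsm1, a regulator of G-protein signaling, was the only contact of the 10 genes listed in both parts, with 3 tags (FDR 0.00515) in the first and 2 tags (FDR 0.00150) in the second, both over 187 kb. The distal anchor was the same in both parts, from 26314924 to 26317992, and the Notch1 anchors overlapped (26502393 to 26504000 and 26501185 to 26505054). An overlapping loop in the other part was found for 7.34% of all loops, and for 2 of the 31 here. Each loop was set against the loops of like span, from 20% shorter to 25% longer, in its own part of the list. All of these had passed the authors' FDR limit, so contacts of that distance that were not listed are not in the comparison. In the second part, 2 tags exceeded 89.2% of 2075 such loops, and in the first part 3 tags exceeded 53.8% of 866 loops. The contact passed over 7 protein-coding genes, Card9, Dnlz, Entr1, Inpp5e, Pmpca, Sec16a and Snapc4. The Gpsm1 anchor had 11 further loops of 1 tag each, so its other loops each had fewer tags than either of those to Notch1. The remaining Notch1 loops had 1 tag each and reached Qsox2 at 266 kb and Rexo4 at 461 kb.

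Notch2 (chromosome 3, 98013527 to 98150361, plus strand) had 4 loops of a single tag. They ended at the promoters of Pde4dip (247 kb), Tbx15 (1239 kb), and Ankrd34a with Polr3gl (1419 kb), and at an anchor in an intron of Bcl9 at 795 kb. Tbx15 encodes a T-box factor of limb and skin development, and Bcl9 a coactivator of Wnt signaling. The Bcl9 anchor lay 2.25 kb from the nearest Bcl9 TSS, just beyond the 2 kb limit. For Notch3 (chromosome 17, 32120820 to 32166852, minus strand) the list held 1 loop of 1 tag, over 449 kb to an intergenic anchor. Single tags at such lengths are the usual value in this list, where 78% of all loops had 1 tag, so an order between Notch2 and Notch3 was not detectable.

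Jag1 (ENSMUSG00000027276.7), a ligand of Notch receptors, occupies 137081456 to 137116644 of chromosome 2, on the minus strand. Within 1 Mb of it, its own loops included, the first part of the list held 3 loops with 7 tags and the second part 6 loops with 12 tags. Its 6 loops left from a single anchor, from 137113871 to 137118299, with 3 loops and 7 tags in the first part and 3 loops and 9 tags in the second. The strongest had 5 tags and the lowest FDR of all 31 loops, 2.07e-12. It ran upstream for 614 kb to an anchor from 137729127 to 137731723, in an intron of the noncoding gene Gm14064, 65.7 kb from the nearest TSS. Loops of that length rarely carry so many tags: of 1432 loops of like span in the second part, 99.9% had fewer and the median was 1. The anchor was also joined, by 1 tag, to the promoter of Btbd3, a BTB domain gene that Jag1 itself reached with 1 tag over 1163 kb. No protein-coding TSS lay between Jag1 and this distal anchor.

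On the other side of Jag1, a loop of 4 tags (FDR 5.02e-05) reached an anchor 225 kb away at the promoters of Mkks, Slx4ip and AL731706.1. It exceeded 84.3% of 1070 loops of like span. Mkks encodes a chaperonin-like protein and Slx4ip a partner of the SLX4 nuclease scaffold. A loop of 2 tags ended 437 kb away at the noncoding gene Gm36967. In the second part, 3 tags (FDR 0.0478) joined Jag1 to an anchor 47.7 kb away, beyond the 3' end of the gene and over an exon of Slx4ip, and 1 tag joined it to an intergenic anchor at 241 kb. The loop of 47.7 kb had few tags for a listed loop of its length: none of 37 listed loops of like span had fewer, and their median was 4. Its FDR was close to the limit of the list, so a low place among listed loops is built in. Although both parts had loops at the same Jag1 anchor, no Jag1 contact was listed in both.

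The middle 300 bases of the 614 kb Jag1 anchor (plus strand of GRCm38, chr2:137730275-137730574) are shown because this contact had the lowest FDR, with capitals on TGGGAA or its reverse complement TTCCCA, the core letters that RBPJ binds. They are followed by the 250 bases before the RefSeq start of Jag1 (minus strand, chr2:137116521-137116770, RefSeq promoters of GRCm38.p6), which lie inside the Jag1 anchor.
Jag1 anchor at 614 kb: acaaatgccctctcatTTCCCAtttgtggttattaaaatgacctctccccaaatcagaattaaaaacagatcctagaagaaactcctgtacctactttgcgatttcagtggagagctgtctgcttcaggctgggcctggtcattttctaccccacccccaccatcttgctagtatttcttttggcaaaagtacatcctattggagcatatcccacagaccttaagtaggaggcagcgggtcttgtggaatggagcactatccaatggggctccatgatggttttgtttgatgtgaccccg
Jag1 promoter: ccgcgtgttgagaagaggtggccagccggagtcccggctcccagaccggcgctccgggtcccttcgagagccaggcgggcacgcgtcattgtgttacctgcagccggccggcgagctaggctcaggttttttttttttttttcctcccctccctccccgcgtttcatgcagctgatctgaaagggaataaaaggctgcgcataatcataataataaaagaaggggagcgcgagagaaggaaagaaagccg
The distal center held 1 match, where 23.0% of the 16864 anchor centers of the list held at least 1, and the whole anchor held 2 in 2.60 kb. A match to the letters is not a bound site. The distal anchor also held 2 matches to CACGTG, the E-box letters that HEY proteins recognize, which were found in 38.1% of all anchors. No match to either motif fell in the 250 bases before Jag1, where 21.6% of 32851 RefSeq promoters held the RBPJ letters and 6.02% the E-box.

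Among the Delta-like and other Jagged ligands, Dll1 (chromosome 17, 15367354 to 15376872, minus strand) had 1 loop of 4 tags (FDR 0.0210) to an intergenic anchor from 15380506 to 15382709, only 5.82 kb away. The promoter anchor is shared with the noncoding gene A930024N18Rik. None of the 53 listed loops of like span in the second part had fewer tags, and their median was also 4. Jag2 (chromosome 12, 112907819 to 112929776) had no loop, and the closest listed anchor began 10.8 kb from its nearest TSS, at the promoter of Nudt14, which had 4 loops of 1 tag each. Loops that passed over Jag2 without touching it numbered 25, with 33 tags. The absence of Jag2 loops therefore stood in a region where other promoters were looped.

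Rbpj (ENSMUSG00000039191.12, chromosome 5, 53466152 to 53657362, plus strand) encodes the factor through which Notch receptors reach DNA. Its 4 loops had 1 tag each, 2 in each part. All left from anchors around the TSSs near 53590214 and none from the annotated TSSs farther upstream. All ran upstream, past 3 to 6 other protein-coding genes, to anchors between 745 and 920.5 kb away at Pi4k2b, Sepsecs and Anapc4. Anapc4, a subunit of the anaphase-promoting complex, was reached in both parts, but at separate anchors (52844167 to 52845973 in the first and 52833301 to 52835940 in the second).

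Hey1 (ENSMUSG00000040289.8), which encodes a basic helix-loop-helix repressor that Notch induces, occupies 8663359 to 8667256 of chromosome 3, on the minus strand. All 8 of its loops left from the same anchor, from 8663665 to 8668030, and all ran upstream of the gene. The strongest had 13 tags (FDR 1.93e-05) and reached an anchor 99.9 kb away, from 8762878 to 8768557. The next had 8 tags (FDR 0.0262) and reached an anchor 51.6 kb away. Both of these anchors were intergenic, with no protein-coding TSS between them and Hey1, and the TSSs nearest to them, of the noncoding genes Gm37647 and C230057A21Rik, lay 16.1 and 17.9 kb off. Together they carried 21 of the 29 tags of the promoter. Set against loops of like span, the loop of 13 tags exceeded 88.4% of 95 loops, whereas the loop of 8 tags exceeded 19.8% of 131 loops, whose median was 9 tags. The contact at 51.6 kb was thus slightly below the median tag count of listed loops at its distance, of which 80.2% had at least as many tags.

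Another Hey1 loop, with 3 tags (FDR 0.000123), joined the promoter to that of Tpd52, 338 kb away, over 1 other protein-coding gene, Mrps28. It exceeded 84.3% of 1780 loops of like span. The other 5 loops had a single tag each. They reached an intergenic anchor of 9.07 kb at 505 kb, the promoters of Zbtb10 and Pag1 at 586 and 1167 kb, and 2 anchors at Zfand1 at 1677 and 1685 kb. The anchor of 9.07 kb was wider than 99.9% of all anchors and 42.0% of its bases were soft-masked repeats in the assembly, against a median of 14.3% over all anchors.

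All tags of Hey1 were in the first part. No Hey1 tag was listed in the other part, although that part had 31.1% of the tags of the whole list. Counting error alone allows up to 3 tags there, and contacts that missed the FDR limit are not seen. Within 1 Mb of Hey1 the first part listed 18 loops with 48 tags and the second part 4 loops with 4 tags. The count for the first part includes the 8 loops and 29 tags of Hey1 itself, so it is not independent of them. The loop score of Hey1 was therefore not observed in both parts, and its recurrence between tumors was not tested.

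The middle 300 bases of the Hey1 anchor at 99.9 kb are shown because this contact has the most tags of all 31 loops. They are on the plus strand of GRCm38, at chr3:8765567-8765866.
Hey1 anchor at 99.9 kb: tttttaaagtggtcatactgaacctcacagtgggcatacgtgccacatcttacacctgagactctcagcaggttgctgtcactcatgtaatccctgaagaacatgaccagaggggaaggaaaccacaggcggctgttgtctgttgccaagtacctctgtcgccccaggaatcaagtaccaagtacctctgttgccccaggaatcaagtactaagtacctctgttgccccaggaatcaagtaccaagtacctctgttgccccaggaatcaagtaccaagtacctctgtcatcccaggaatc
No match to the RBPJ letters fell in this window, and the whole anchor held 6 in 5.68 kb. The window held 4 copies of the 17 bases ccccaggaatcaagtac. The length of 17 was set by the search, and the bases between the copies also recur with small differences, so the repeated unit is longer. None of the bases of the window were soft-masked in the assembly.

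**Figure D3:**
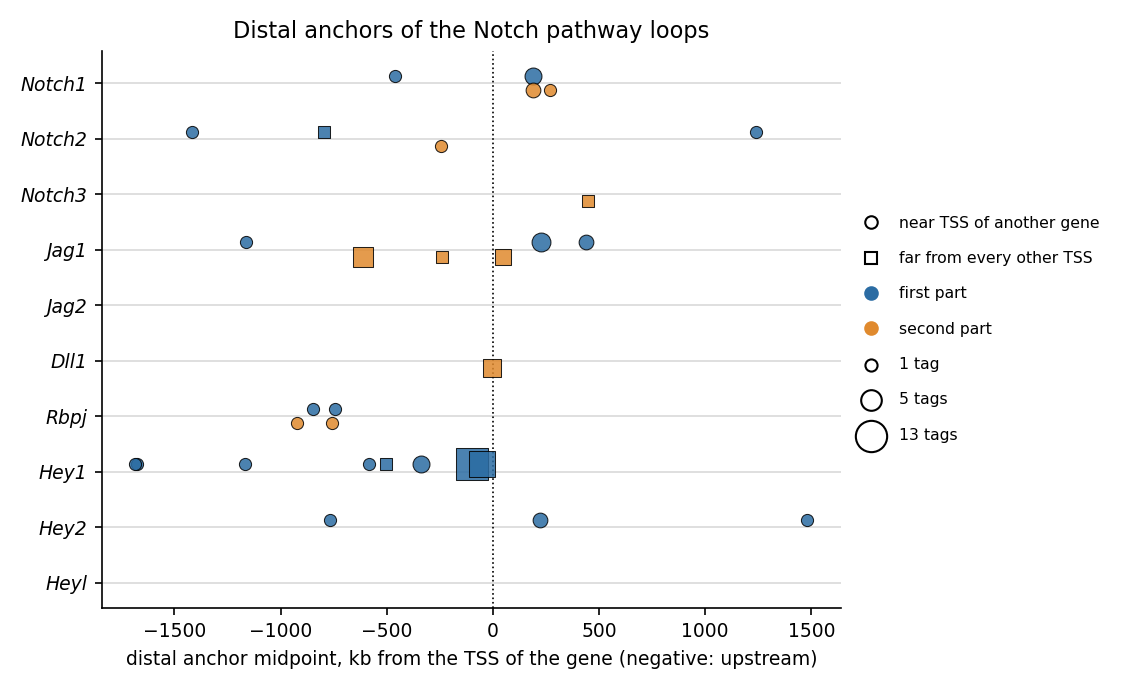
Distance of each distal anchor from the TSS of its Notch pathway gene (horizontal axis, kb, negative upstream), with a row for each gene, symbol area growing with the tag count, color for the part of the list and squares for anchors far from every TSS of another gene. All Hey1 anchors lie upstream and in the first part, the Jag1 anchors lie on both sides, and those of Rbpj all lie upstream.

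Hey2 (chromosome 10, 30832359 to 30842801, minus strand), the relative of Hey1 with roles in heart and vessels, had 3 loops, all in the first part. They reached Hint3 with 2 tags at 225 kb and, with 1 tag each, Rnf217 at 766 kb and Rnf146 at 1481 kb. Heyl (chromosome 4, 123233556 to 123249875), the third of the Hey genes, had none. The closest listed anchor began 42.2 kb from its TSSs, at the promoter of Pabpc4, and a single loop of 1 tag passed over the gene. The Hey genes thus ranged from 0 to 29 tags, with the interval of Hey1 above those of the other two.

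For 8 of the 10 genes 10 RefSeq promoters were matched (Hey1 and Heyl had no entry). Of these, 3 held the RBPJ letters within the 250 bases before the start, and none held CACGTG. Over all 32851 RefSeq promoters the shares were 21.6% and 6.02%, so these counts set the promoters not apart. The 3 were both promoters of Rbpj, which overlap, and the promoter of Hey2. They are shown because they hold the core letters of the pathway's own DNA-binding factor within looped anchors, first for Rbpj (plus strand, chr5:53590096-53590345) and then for Hey2 (minus strand, chr10:30842784-30843033).
Rbpj promoter: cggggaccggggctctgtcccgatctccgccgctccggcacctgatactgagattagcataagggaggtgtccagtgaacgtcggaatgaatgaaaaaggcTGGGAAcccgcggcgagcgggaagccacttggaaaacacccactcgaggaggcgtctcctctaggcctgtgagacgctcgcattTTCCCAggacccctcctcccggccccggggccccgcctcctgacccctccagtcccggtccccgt
Hey2 promoter: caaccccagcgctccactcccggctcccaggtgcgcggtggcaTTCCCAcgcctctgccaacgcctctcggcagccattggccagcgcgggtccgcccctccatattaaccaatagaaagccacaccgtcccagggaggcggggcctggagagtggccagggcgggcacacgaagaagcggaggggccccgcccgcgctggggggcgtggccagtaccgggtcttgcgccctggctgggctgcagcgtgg
Rbpj held the letters at 2 positions, in opposite orientations. The other Rbpj promoter in the table overlaps this window and shares the second match. Over whole anchors the RBPJ letters were common, found in 90.6% of all anchors and in all 11 promoter anchors of the looped genes. The 11 anchors came from 8 genes, since Notch1, Notch2 and Rbpj each had 2 that overlap and so count 2 times. These promoter anchors held a median of 1.62 matches per kb (0.622 to 2.40), where the median over all anchors was 0.924. The promoter anchors were also wider than most, with a median of 3.87 kb against 2.59 kb, and richer in G and C, with 57.7% against 51.3%. Their observed over expected ratio of CpG was 0.702, against 0.501 over all anchors. Over the 12165 anchors at protein-coding promoters the medians were 2.71 kb, 52.7% G and C, a CpG ratio of 0.570 and 0.901 matches per kb, which are also below those of the 11 Notch pathway anchors. The difference was not tested. The number of MboI sites, at which the chromatin was cut, had a median of 7 in the promoter anchors and 5 in all anchors. These numbers were not scaled by width, and the promoter anchors were wider.

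The distal ends of the 31 loops fell in 30 distinct anchors. A TSS of another gene stood within 2 kb of 21 of them (70.0%, 52.1 to 83.3%). Over all looped protein-coding promoters the share was 79.0% (11870 of 15025 anchors), which lies inside the interval of the Notch pathway genes. The remaining 9 anchors far from other promoters received 37 tags, a mean of 4.11 and a median of 3 per loop. The 22 loops that ended near a TSS held 32 tags, a mean of 1.45 and a median of 1. Hey1 alone supplied 22 of the tags to far anchors. All 4 loops under 100 kb ended far from other promoters, and they held 28 tags, so short span and far anchors were not separate here. These were 40.6% of the tags of the 31 loops. Over the whole list, loops under 100 kb were 5.13% of loops and held 28.8% of tags. The tags per loop of far and near anchors are given without their values over all loops. Of the far anchors, 3 lay in gene bodies (Bcl9, Gm14064 and Slx4ip) and 6 were intergenic. Their median distance to the nearest TSS was 17.9 kb (2.25 to 75.1 kb).

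The loops had a median span of 505 kb (5.82 to 1685 kb), close to the 500.3 kb of all loops. A single tag supported 20 of them (64.5%, 46.9 to 78.9%), where the share over all loops was 78%, within that interval. At least 4 tags were reached by 5 loops, where the share over all loops was 6.74%, and these belonged to Hey1, Jag1 and Dll1. A loop of at least 4 tags was thus found for 3 of the 10 genes, against 8.51% of all protein-coding genes. That of Dll1 had only the median tag count of listed loops of its short span, and its promoter anchor is shared with A930024N18Rik. An FDR under 0.01 was reached by 7 loops of 3 genes (Hey1, Jag1 and Notch1), where 17.5% of protein-coding genes had such a loop. Loops in each part of the list were found for 4 genes (Notch1, Notch2, Jag1 and Rbpj), where the background was 24.3%. With 10 genes chosen in knowledge of earlier results from this list, these counts describe the genes and set nothing apart. Without Hey1 and Jag1 the other 6 looped genes had 17 loops with 24 tags, and 13 of the loops had a single tag. Upstream contacts numbered 21 and downstream contacts 10, with Hey1 supplying 8 and Rbpj 4 of the former. The split is given without its value over all looped promoters, so it sets nothing apart. A loop passed over a median of 3 other protein-coding genes (0 to 24). No loop joined any 2 of the 10 genes. Those that share a chromosome lie far beyond the reach of the listed loops, so this was fixed by their positions.

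**Figure D4:**
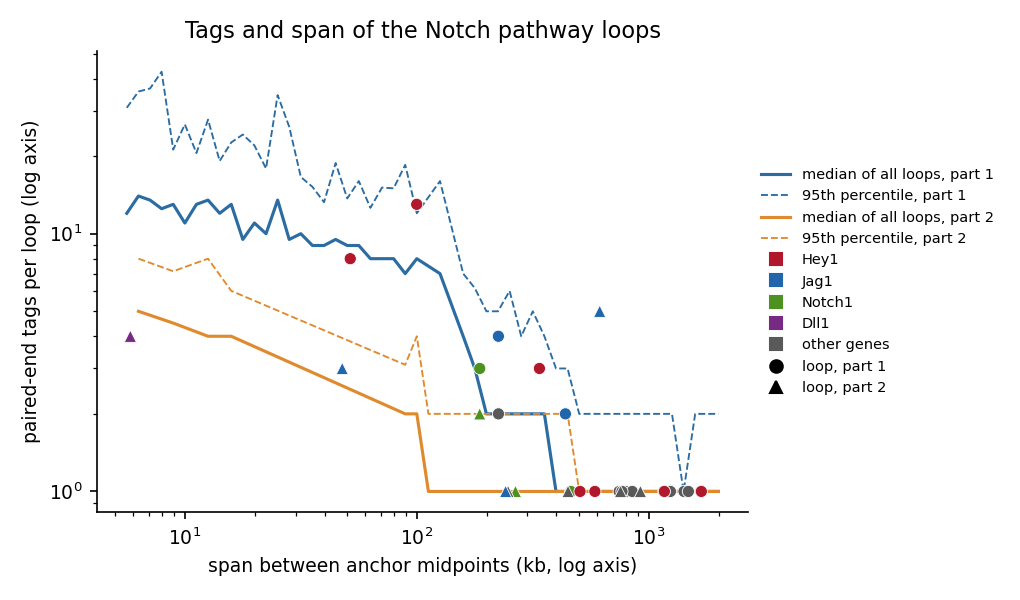
Tags per loop (vertical axis, log) against the span between anchor midpoints in kb (horizontal axis, log) for the 31 Notch pathway loops, with the median and the 95th percentile of all loops per part, in span bins of at least 20 loops. The Jag1 loop of 5 tags at 614 kb lies above the 95th percentile line of the second part, the Hey1 loop of 13 tags at 99.9 kb lies near that of the first part, and the Dll1 loop of 4 tags is the shortest.

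The rest of the Notch pathway was read in 47 further genes: 35 (74.5%) had a loop, where the share over all protein-coding genes was 45.8%, and 9 had a loop of at least 4 tags, where that share was 8.51%. Their median loop score was 4. None of their loops ended at the 10 genes. Nearly all of the 47 genes lie on other chromosomes or farther from the 10 than the listed loops reach. This absence was therefore mostly fixed by their positions. By role, loops reached 8 of 9 protease genes (the ADAM sheddases, furin and the γ-secretase subunits, loop scores up to 12), 10 of 11 genes of ubiquitin transfer and trafficking, 6 of 9 nuclear cofactors, 3 of 5 glycosylation genes, 5 of 7 further targets, 2 of 5 further ligands, and Notch4. These are counts in small groups chosen with earlier results known, to be read against the same 45.8%, and they set no role apart. The largest score was that of Hes1, the helix-loop-helix repressor that is another main target, with 225 tags in 31 loops (196.6 to 256.4), above the interval of Hey1. Its strongest loop had 38 tags over 58.6 kb to the noncoding gene 4632428C04Rik. Notch4 followed with 59 tags, its strongest loop reaching Agpat1 and Rnf5 over 16.3 kb from an anchor it shares with Gpsm3. Next were Lfng, a glycosyltransferase that tunes the choice of ligand, with 50 tags, Dtx3 with 39 and the coactivator Maml3 with 36. The strongest loop of Maml3 had 12 tags and ended 56.8 kb away at an anchor with no TSS. The loops of Lfng lay mostly in the first part, with 49 tags, and those of Hes1 in both, with 169 and 56 tags.

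Low values were found across the remaining roles. Dll4 and Dlk2 had 2 tags each, Nrarp, a feedback inhibitor induced by Notch, had 2, and Hes6 and Hes7 had 1. No loop reached Dll3, Dlk1, Dner, Hes2, Hes5, Maml2, Snw1, Kat2b, Mfng, Poglut1, Adam17 or Neurl1a. For each of them counting error alone allows up to 3 tags, and contacts that missed the FDR limit are not counted. Over ligands as a whole, Jag1 had the most tags, and Dll1 came next with 4. Among receptors the 3 studied in detail had 12 tags together, and Notch4 had 59. The strongest loops of Notch4, Lfng and Dtx3 left from anchors shared with the promoters of Gpsm3, Gm43703 and F420014N23Rik, and such loops cannot be credited to either gene.

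**Figure D5:**
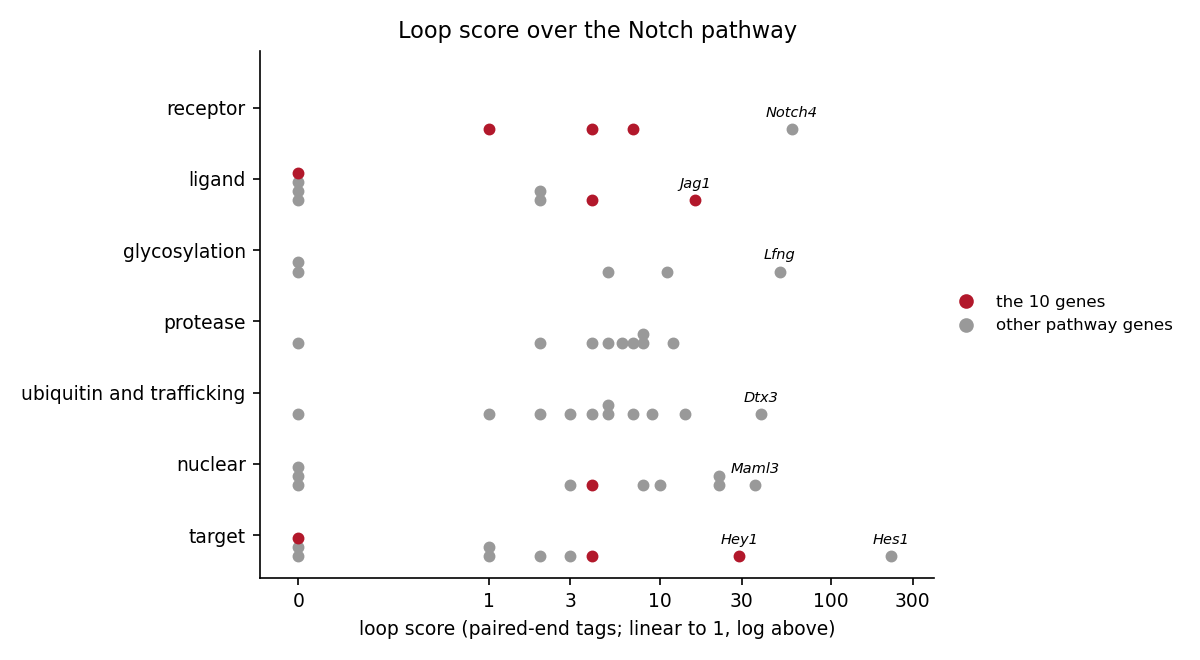
Loop score in paired-end tags (horizontal axis, linear to 1 and logarithmic above) of the 10 Notch pathway genes and 47 further pathway genes, in a row for each role. Hes1 (225 tags) stands alone at the right, Hey1 and Jag1 are the highest of the 10 genes, and several ligands and targets have no tags.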

How the data were processed

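H3K27ac HiChIP of 2 hSS2 tumors was analysed. Reads were aligned to mm10 by the authors using HiC-Pro. For loop calling the methods name hichipper and an FDR limit of 0.05, whereas a supplementary legend names Mango and 0.01, and both tumors were merged. The deposited list holds FDRs up to 0.0500, so it was not limited to 0.01. With that limit 3 of the 10 genes had a loop. Each deposited loop has a count of paired-end tags, not normalized, and an FDR, which is an adjusted p-value given by the authors' loop caller. How the counts were merged is not given in the sources used here. The depth was 41574 tags over 24244 loops, which leaves most single loops at 1 tag, and no value per tumor was given, so nothing was tested between samples. The 10 genes, the 47 further pathway genes and all summaries were chosen with earlier results of these data known.

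TSSs were those of all GENCODE vM21 transcripts (GRCm38), and anchors were written with positions starting at 1. The list was split where its chromosome order restarts. Loops were matched between parts when both anchors overlapped. Genes were named when they lay at the distal anchor of a loop of at least 4 tags, or, failing that, of the strongest loop, and the other ends and the low values of further pathway genes that are given were chosen after their values were seen. Motifs were searched on both strands, in 250 bases before RefSeq starts, in whole anchors and in their central 300 bases. Sequence is printed for 2 of the 30 distal anchors. The assignment was tested on simulated data, where 200 of 200 planted loops were recovered. Alternatives were promoter windows of 1 and 5 kb, FDR and tag limits, each part alone, RefSeq transcripts, loops up to 1 Mb, anchors of 4 kb and repeated loops taken once. For loop scores the number of loops was also used in place of tags, and for distal anchors the TSSs of protein-coding genes only. The scripts ran on Python 3.11.15 with scipy 1.17.1, matplotlib 3.10.9, pandas 2.3.3 and numpy 2.4.6.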

Additional observations from a re-analysis of the deposited data

How the results depend on the processing

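The number of Notch pathway genes with a loop stayed at 8 with windows of 1 and 5 kb, RefSeq transcripts, loops up to 1 Mb, anchors of 4 kb and repeated loops taken once, and was 6 in each part alone. Limits on the evidence lowered it, to 5 with at least 2 tags, 3 with at least 4 tags, 3 with an FDR under 0.01 and 2 with an FDR under 0.001, since fewer loops are counted. In the same order the summed tags were 49, 34, 32 and 25, and they were 49 in the first part alone and 20 in the second. The share of distal anchors near the TSS of another gene was 50.0% of 10 anchors with at least 2 tags, 20% of 5 with at least 4 tags, 50.0% of 4 with an FDR under 0.001 and 50.0% of 10 in the second part. Under the other settings it lay between 60.9% and 81.0%. Hey1 kept 29 tags under each choice of window and transcripts, 16 with an FDR under 0.001 and 0 in the second part, and Jag1 had 16, 9 and 9. Of 130 loop scores recomputed for single genes, 97 lay inside the interval of the reported value. These scores include Jag2 and Heyl, which stayed at 0 throughout, and settings that changed no score. They also include numbers of loops set against intervals of tags. The share inside is therefore not a measure of robustness. With RefSeq transcripts or a 5 kb window Notch3 had 2 tags. No paired analysis was possible because the merged list has no column per tumor, and for the same reason no tumor could be left out.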
